A study of Mus musculus with 10 samples.

Results

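The 44 genes described here act in S phase or mitosis, 19 in S phase and 25 in mitosis, and were taken by name from the 56750 features of a count table of mouse sarcomas. All 44 matched a feature by gene symbol, and all 44 were among the 24743 features that passed a filter on low counts. Bulk RNA-seq had been made from 3 dFLEx tumors (170019, 170024 and 170025) and 2 KP tumors (3800 and 3802), all autochthonous sarcomas arising in mice. The dFLEx animals (genotype dFLEx CDS +/-) carried an HA-tagged CIC::DUX4 allele, the fusion that defines CIC::DUX4 sarcoma, in the Rosa26 locus. The CAG promoter and not the promoter of Cic drove the allele, and it stayed silent until Cre and FLPE plasmids had both been electroporated into a hind-limb muscle. The KP animals carried floxed p53 (p53fl/fl), which Cre deletes, and no CIC::DUX4 allele. The labels named no treatment and gave neither the age nor the sex behind each tumor. The groups therefore differed in the fusion, in p53 and in other parts of the genotype, which cannot be told apart.

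The RNA of each tumor had been divided into duplicate libraries, and 9 of 10 were used, the second library of 3802 being not analysed here. Library totals ran from 20503474 counts (3802) to 46302223 counts, and duplicates were summed, so that a tumor was 1 sample. The fusion transcript reached 105, 202 and 423 counts per 1000000 (CPM) in 170019, 170024 and 170025 and 0 and 0.244 CPM in 3800 and 3802, in keeping with the labels. Markers of other cells also differed between tumors, and their part in the results below was not tested. The sum of 10 macrophage genes was 1281, 1259 and 1105 CPM in the dFLEx tumors against 2698 and 5381 CPM in 3800 and 3802. The sum of 9 myocyte genes was 9756, 35729 and 10167 against 1912 and 5332 CPM. Every dFLEx tumor was below both KP tumors for 7 of 10 macrophage genes and above both for 6 of 9 myocyte genes. Over all genes these shares were 11.7% and 13.7%. The groups overlapped for Cd68, Cd163 and Mrc1 and, of the myocyte genes, for Myh1, Ttn and Des. C1qa alone was at 509 CPM in 3800 and 3099 CPM in 3802, and 5 of the 10 macrophage genes were higher in 3800.

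Entry into S phase depends on E2F transcription factors, which switch on the genes that license origins, make nucleotides and copy DNA. Later in the cycle B-MYB (Mybl2) and FOXM1, bound to the MuvB complex, switch on the cyclins, kinases and spindle proteins of mitosis, and the anaphase-promoting complex (APC/C) then ends mitosis by marking some of these proteins for destruction. Because most of these mRNAs are scarce in resting cells, their level in a tumor is widely read as a sign of how many cells are cycling. In bulk RNA, fewer cycling cells and less of each mRNA per cycling cell cannot be told apart.

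The promoters of the 44 genes were searched for the elements through which these factors act. From 250 bases before to 50 bases after the annotated start (GRCm39, GENCODE canonical transcripts), an E2F element, taken as TTTGGCGC, TTTGCCGC, TTTCGCGC or TTTCCCGC on either strand, was found in 11 of 19 S-phase genes (57.9%), 1 of 25 mitosis genes (4%) and 2.82% of 21757 protein-coding promoters. A cell cycle homology region (CHR), the site of MuvB, taken as TTTGAA or TTCGAA on either strand, was found in 2 of 19 S-phase genes (10.5%), 13 of 25 mitosis genes (52%) and 18.7% of all. The CCAAT box, bound by NF-Y, was found in 14 of 19 (73.7%), 17 of 25 (68%) and 39.9%. E2F elements were thus found mainly in S-phase promoters and CHR elements mainly in mitosis promoters, while 11 genes, Mybl2 and Foxm1 among them, held none of the 3 motifs in this window. These are matches of letters and do not show that a factor was bound.

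**Figure D1:**
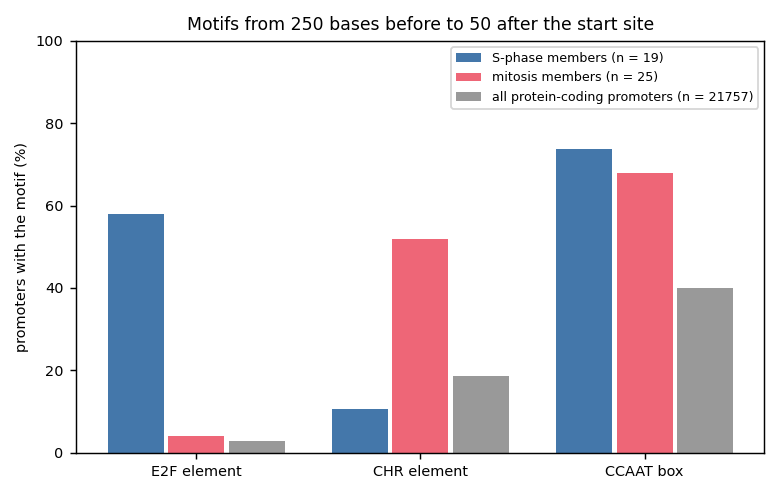
Share of promoters, in percent, that hold each motif on either strand between 250 bases before and 50 bases after the annotated start, for the S-phase genes, the mitosis genes and all protein-coding genes. E2F elements were found in 57.9% of S-phase promoters against 2.82% of all, and CHR elements in 52% of mitosis promoters against 18.7% of all.

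The 150 bases before the start are printed for 5 of these genes, 5′ to 3′ on the gene's own strand with every motif match in capitals (ATTGG and TTCAAA are the reverse strand of CCAAT and TTTGAA). No annotated exon lies in any of the 5 windows. E2f2 (chr4:135899435-135899584, plus strand) and Rrm1 (chr7:102090740-102090889, plus strand) were the genes with the smallest unadjusted p-values in the comparison of the groups. Mcm4 (chr16:15455265-15455414, minus strand) shows the pairing of an E2F element with a CCAAT box in a licensing gene. Ccnb2 (chr9:70328875-70329024, minus strand) and Aurkb (chr11:68936317-68936466, plus strand) show a CHR element with a pair of CCAAT boxes in mitosis genes. In both, the printed CHR element lies upstream of the printed CCAAT boxes. Each of these promoters also holds another CHR element after the start and another CCAAT box, outside the printed window. Which of the CHR elements is used was not tested.
E2f2: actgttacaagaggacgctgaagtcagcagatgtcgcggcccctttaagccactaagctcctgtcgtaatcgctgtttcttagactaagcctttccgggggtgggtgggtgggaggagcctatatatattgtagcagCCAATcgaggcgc
Rrm1: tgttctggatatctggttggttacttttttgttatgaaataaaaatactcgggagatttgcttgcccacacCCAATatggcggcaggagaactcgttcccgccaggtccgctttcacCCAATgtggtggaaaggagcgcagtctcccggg
Mcm4: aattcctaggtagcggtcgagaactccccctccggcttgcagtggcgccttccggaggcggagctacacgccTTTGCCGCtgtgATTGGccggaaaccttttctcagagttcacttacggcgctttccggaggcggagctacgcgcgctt
Ccnb2: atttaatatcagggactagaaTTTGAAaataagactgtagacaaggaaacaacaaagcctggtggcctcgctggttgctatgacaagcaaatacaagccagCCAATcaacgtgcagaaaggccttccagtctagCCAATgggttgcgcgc
Aurkb: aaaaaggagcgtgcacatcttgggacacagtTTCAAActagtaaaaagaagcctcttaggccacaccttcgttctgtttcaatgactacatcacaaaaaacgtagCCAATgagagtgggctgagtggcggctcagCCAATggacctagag

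The first question was whether the proliferation genes differed between dFLEx and KP tumors. None of the 44 passed the test (edgeR quasi-likelihood, Benjamini-Hochberg adjusted p under 0.05 over all 24743 genes tested), against 0.101% of all genes called higher and 0.0808% called lower in dFLEx tumors. At an unadjusted p under 0.05, 1 member was higher in dFLEx tumors (Rrm1) and 1 was lower (E2f2), against 5.65% and 4.93% of all genes. DESeq2 on the same tumor sums called none either. Fold changes, always dFLEx over KP, ran from -1.44 to 1.41 on the log2 scale. Their median was -0.13, beside -0.18 over all genes tested. The 18 genes with a positive and the 26 with a negative value were split by phase, with a median of 0.11 for the S-phase genes and -0.35 for the mitosis genes. Standard errors lay between 0.53 (Ube2c) and 1.57 (Kif20a) on the log2 scale. A 2-fold difference would lie within 2 standard errors of no difference for every member, so the values do not show that the groups were alike. Over all genes tested, the biological coefficient of variation estimated by edgeR was 86.3%.

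The levels of the groups overlapped for 40 of the 44 genes. Every dFLEx tumor was above every KP tumor for Rrm1 and Gmnn, and below for E2f2 and Ube2c, against 13.7% and 11.7% of all genes. The count of non-overlapping members was thus below the background on both sides. Each of the 4 is described with its role below.

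**Figure D2:**
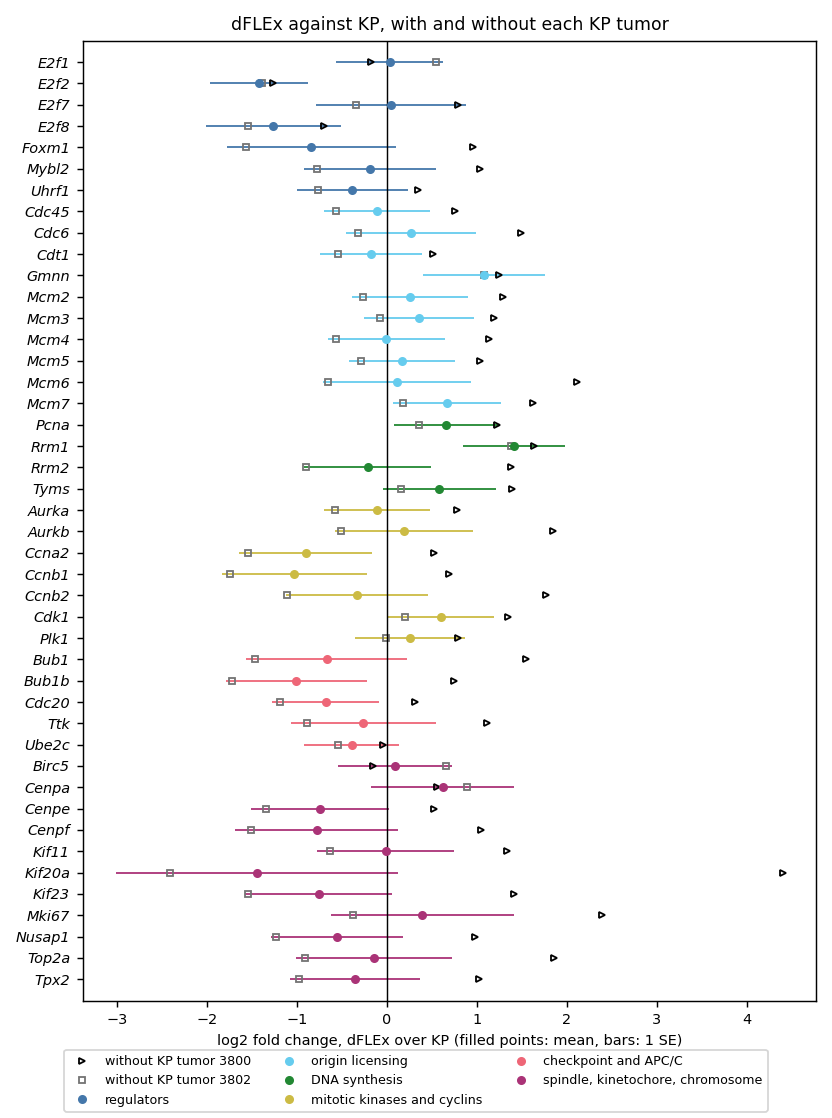
log2 fold change of each gene, dFLEx over KP, with 1 SE (filled points and bars, coloured by role), and the value refitted without KP tumor 3800 (open triangles) or without KP tumor 3802 (open squares). The values lie around 0 with both tumors in the fit, and the median over the 44 genes moves from -0.13 to 1.04 without 3800 and to -0.61 without 3802.

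Tumors of the same group differed from each other far more than duplicate libraries did. The median coefficient of variation over the members was 4.28% between duplicate libraries, 41.8% between the 3 dFLEx tumors and 66.7% between the 2 KP tumors. Of the KP tumors, 3800 exceeded 3802 for 40 of 44 genes, against 46.3% of all genes tested, by a median factor of 2.79. The difference was at least 2-fold for 30 of 44 genes, against 29.2% of all genes, and no member was 2-fold lower, against 38.7% of all genes. KP tumor 3800 was above every dFLEx tumor for 27 genes (61.4% of members, 28.5% of all genes), and 3802 was below every dFLEx tumor for 28 (63.6% of members, 32.4% of all genes). Both held for 16 genes, whose dFLEx levels all lay between those of the KP tumors. The 4 genes that 3802 held at the higher level were E2f1, E2f2, Cenpa and Birc5.

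The comparison of the groups therefore depended on which KP tumor was in it. Without 3800, the member median was 1.04, 31 genes lay above the remaining KP tumor in every dFLEx tumor, and the sign of 25 of 44 fold changes turned. Without 3802, the median was -0.61 and 27 genes lay below in every dFLEx tumor. No member passed the test in either case, and with 1 KP tumor its spread is assumed to be that of the dFLEx tumors. The medians over all genes tested were -0.07 without 3800 and 0.34 without 3802. With 1 KP tumor left, groups separate more readily. In the fit with all tumors, 3802 was below every dFLEx tumor for 32.4% of all genes and 3800 above for 28.5%. Shares of all genes were not counted in the refits, for separation or for turned signs. Fold changes kept their sign in all 18 alternatives for 9 genes, Mcm7, Gmnn, Pcna, Rrm1, Tyms and Cdk1 on the positive side and E2f2, E2f8 and Ube2c on the negative.

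KP tumor 3802 differed from 3800 in other measures as well. It had 1 library, the smallest total and the most features with a count (36904, against 24280 to 31768 in the other 8 libraries), and the sums of T cell (83.3 against 36.2 CPM), B cell (42.5 against 3.94 CPM) and erythroid (1792 against 70.3 CPM) markers were above those of 3800. The sums of 8 endothelial (107 against 189 CPM) and 6 pericyte (94.7 against 417 CPM) markers were below. In 170019, 170024 and 170025, T cell markers summed to 12.6, 12.1 and 8.57 CPM and B cell markers to 5.12, 6.81 and 3.69 CPM. Erythroid markers summed to 829, 1118 and 377 CPM there, so that 3800 was far below every other tumor. For the sums of endothelial (253, 349 and 600 CPM) and pericyte markers (932, 608 and 1120 CPM), both KP tumors were below every dFLEx tumor. Taken singly, this held for 3 of 8 endothelial and 2 of 6 pericyte markers, against 13.7% of all genes. The endothelial marker Vwf and the pericyte marker Cspg4 were highest in 3800. Most of the pericyte sum in the dFLEx tumors was Rgs5, at 826, 473 and 776 CPM.

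**Figure D3:**
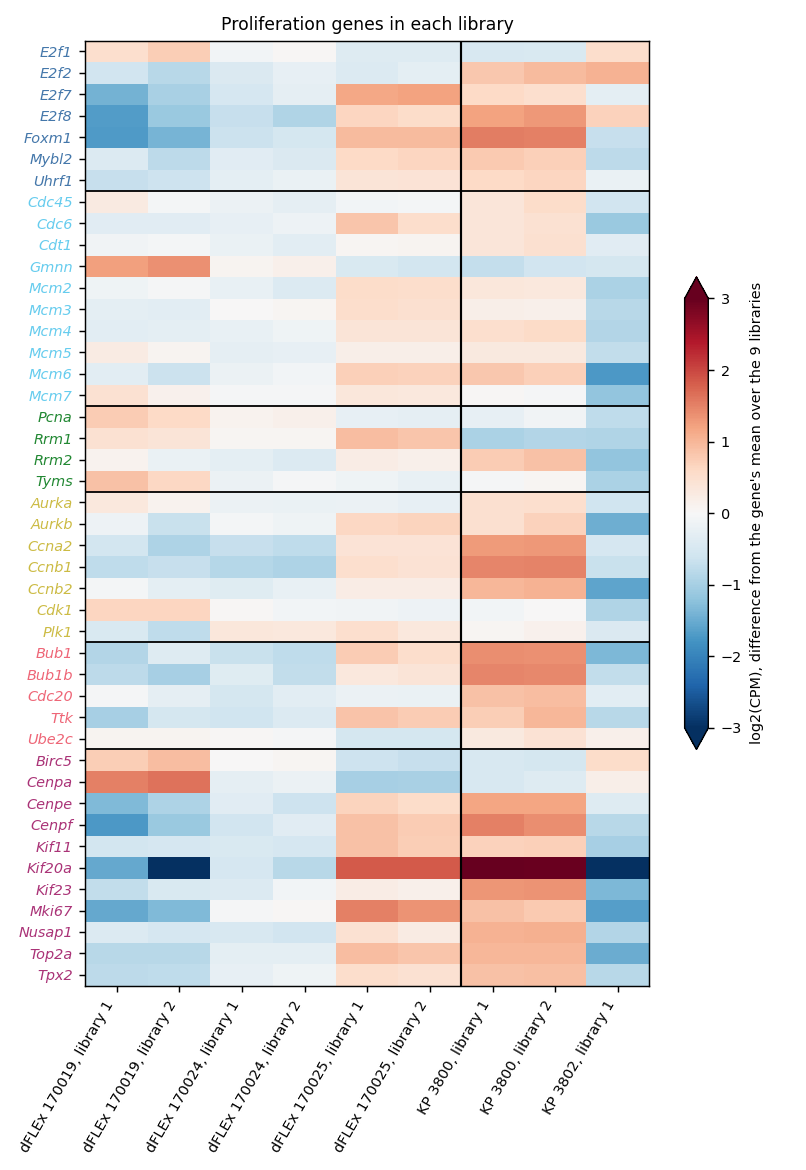
log2(CPM) of each gene in each of the 9 libraries, as the difference from the gene's own mean over the libraries, with genes grouped by role (black lines) and colours ending at -3 and 3. Duplicate libraries look alike, KP tumor 3800 is red and 3802 blue in most rows, and dFLEx tumor 170019 is blue in most regulator and spindle rows but red for Cenpa, Gmnn, Birc5 and Pcna.

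The dFLEx tumors differed from each other too. Among them, 170025 had the highest fusion transcript level and 170019 the lowest. Tumor 170025 exceeded 170019 for 34 of 44 genes, against 47.0% of all genes tested, by a median factor of 1.89. It was at least 2-fold higher for 21 genes, against 27.4% of all genes, and at least 2-fold lower for 3 (Cenpa, Birc5 and Gmnn), against 35.3%. Levels followed the order of the fusion transcript, 170019 below 170024 below 170025, for 23 of 44 genes (29% of all genes) and the reverse order for 7 (32% of all genes). The first order was held by 6 of 7 regulators and 8 of 11 spindle and kinetochore genes, but by 0 of 4 nucleotide and DNA synthesis genes. Fibroblast markers summed to 4015, 6870 and 13057 CPM and endothelial markers to 253, 349 and 600 CPM in the same order. The fusion transcript was thus not the only quantity that followed this order. The sums did not stand for every marker, since 170025 exceeded 170019 for 4 of 6 fibroblast and 7 of 8 endothelial markers. Among fibroblast markers, Dcn fell, at 438, 381 and 228 CPM, and Lum was lowest in 170025 of the dFLEx tumors. The endothelial marker Emcn was highest in 170019.

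The ratio of 170025 to 170019 also went with gene length. Across the 44 genes, Spearman's rho between the log2 ratio and the length of the exon model was 0.54, and over the 15219 genes whose mean level reached 1 CPM it was also 0.54. For the ratio of 3800 to 3802, rho was 0.23 over members and 0.36 over all those genes. The genes share the libraries, so these are descriptions across genes and no test was made. The long genes Mki67 (10061 bases) and Cenpf (15433 bases) were 7.89-fold and 5.02-fold higher in 170025 than in 170019, and the short Gmnn (1465 bases) was at 0.309 of its level in 170019. Other members departed from this trend. The long Rrm1 (11012 bases) was only 1.475-fold higher, and the largest rise, 16.6-fold, was that of Kif20a (4338 bases). Cenpa (5860 bases) had the largest fall, to 0.183 of its level in 170019. Across members, the ratios within both groups ran in parallel (rho = 0.64, n = 44 genes): genes that differed most between the KP tumors tended to differ most between these dFLEx tumors.

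**Figure D4:**
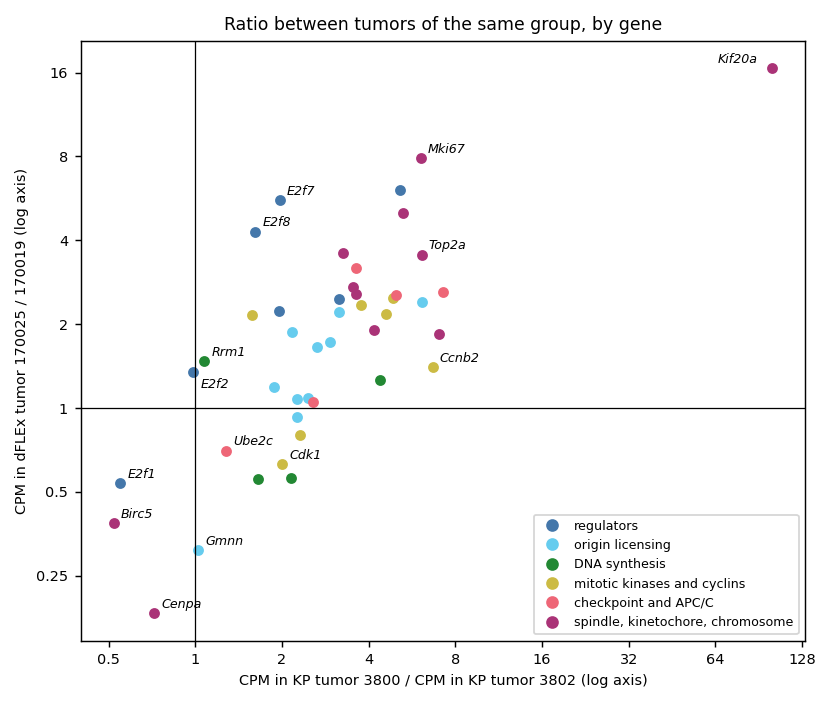
Ratio of CPM between KP tumors 3800 and 3802 (horizontal) and between dFLEx tumors 170025 and 170019 (vertical) for each gene, both on log axes, coloured by role. Most genes lie in the upper right part, Kif20a at the far end (101 and 16.6), and E2f1, Birc5 and Cenpa in the lower left.

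Among the 7 regulators, the E2F activators E2f1 and E2f2 behaved unlike the rest. E2f2, an activator E2F, was at 11.3, 14.5 and 15.2 CPM in 170019, 170024 and 170025 and at 36.3 and 36.9 CPM in 3800 and 3802. All dFLEx tumors were low and close to each other (mean 13.7 ± 2.09 CPM, SD, n = 3), both KP tumors were high (36.6 ± 0.432, n = 2), and it was the member with the smallest p-value (log2 fold change -1.42, SE 0.54, edgeR adjusted p = 0.402). It was also a gene for which the KP tumors, far apart in most members, were at nearly the same level. E2f1, another activator and the regulator with the highest level per kilobase (19.8 CPM per kilobase of exon model), was at 86.1, 56.0 and 46.3 against 43.7 and 79.4 CPM, with full overlap of the groups and a log2 fold change of 0.03 (SE 0.59). Its order over the tumors was unlike that of most members, with 170019 highest and 3800 lowest.

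The repressor E2Fs E2f7 and E2f8, themselves E2F targets that shut off E2F genes late in S phase, were lowest in 170019 and higher in 3800 than in 3802. E2f7 was at 4.65, 8.22 and 25.9 against 16.6 and 8.45 CPM, the fold change being 0.04 (SE 0.83) on the log2 scale, with a sign that turned in 13 of 18 alternatives. E2f8 was at 5.95, 9.21 and 25.5 against 40.2 and 24.9 CPM (-1.26, SE 0.75, edgeR adjusted p = 0.692), so that 170025 alone among dFLEx tumors reached the KP levels. On the opposite strand Gm2788 overlaps 20.7% of the E2f8 exon model, and unstranded counts cannot separate them. Foxm1, which drives the mitotic genes, spanned the widest range of the regulators, from 7.24 CPM in 170019 to 65.4 CPM in 3800. Mybl2 lay between 10.2 CPM (3802) and 32.1 CPM (3800). Uhrf1, which carries DNA methylation through replication, lay between 39.5 CPM (170019) and 104 CPM (3800).

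The 10 licensing genes had log2 fold changes between -0.18 and 1.08, with 7 of 10 positive. All 10 were lowest in 3802. The 6 Mcm genes, Mcm2 to Mcm7, encode the subunits of the replicative helicase. They ranged from 23.7 CPM (Mcm6 in 3802) to 175 CPM (Mcm7 in 170025), with log2 fold changes from -0.01 (Mcm4) to 0.67 (Mcm7). Each was higher in 3800 than in 3802, by 2.16-fold (Mcm3) to 6.12-fold (Mcm6). Among dFLEx tumors, Mcm2, Mcm5 and Mcm7 were lowest in 170024 and Mcm3, Mcm4 and Mcm6 in 170019. Tumor 170025 exceeded 170019 by 1.07-fold (Mcm5) to 2.40-fold (Mcm6). Cdt1, which loads the helicase, had the lowest fold change, with 58.0, 52.5 and 69.2 against 88.5 and 47.2 CPM (-0.18, SE 0.56). Cdc6, its partner in loading, and Cdc45, which activates the helicase, were at 7.40 to 28.3 and 25.2 to 56.9 CPM over the tumors.

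Gmnn (geminin), the inhibitor of Cdt1, departed from its group. It was at 106, 47.9 and 32.8 CPM in 170019, 170024 and 170025 against 29.8 and 29.2 CPM. All dFLEx tumors were above both KP tumors, but 170025 only just, and 170019 carried most of the difference (mean 62.3 ± 38.8, n = 3, against 29.5 ± 0.430, n = 2, log2 fold change 1.08, SE 0.68, edgeR adjusted p = 0.735). It had the smallest p-value, the largest fold change and, at 33.6 CPM per kilobase, the highest level per length of the licensing genes. The fold change was 0.41 without 170019. An unstranded count cannot separate Gmnn from a gene on the opposite strand that overlaps 23% of its exon model.

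Of the 4 synthesis genes, Rrm1 had the largest fold change of all members. Rrm1, the large subunit of ribonucleotide reductase, was at 245, 194 and 362 CPM against 104 and 96.5 CPM. The dFLEx tumors were all well above the KP tumors, which were alike (267 ± 86.1, n = 3, against 100 ± 5.11, n = 2, log2 fold change 1.41, SE 0.57, edgeR adjusted p = 0.426). Rrm2, the small subunit of the same enzyme and the one whose level cycles, was at 86.0, 70.6 and 109 against 167 and 38.2 CPM, with the KP tumors on either side of the dFLEx tumors (-0.22, SE 0.70). The subunits were thus unlike each other across the tumors. Pcna, the sliding clamp of the DNA polymerases and at 64.1 CPM per kilobase the highest member per length, was at 240, 166 and 134 against 143 and 86.3 CPM (0.65, SE 0.58). The unstranded counts cannot separate Pcna from AV099323, which overlaps 20.8% of its exon model on the opposite strand. Tyms (thymidylate synthase) ran with Pcna, at 94.3, 52.7 and 53.0 against 60.9 and 28.3 CPM (0.58, SE 0.63).

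The 7 mitotic kinases and cyclins were all higher in 3800 than in 3802, by 1.58-fold (Plk1) to 6.67-fold (Ccnb2). Ccnb1 (cyclin B1) was at 25.2, 23.1 and 62.7 against 125 and 25.8 CPM, so that 3802 lay among the dFLEx tumors and 3800 stood alone at the top (-1.03, SE 0.80, edgeR adjusted p = 0.82). Ccnb2 (cyclin B2) was at 40.2, 37.5 and 56.3 against 97.9 and 14.7 CPM (-0.33, SE 0.79) and had the highest level per length of the group, 32.2 CPM per kilobase. Cdk1, the kinase that both cyclins activate, had the largest fold change of the group and did not run with them. Its levels were 191, 123 and 120 against 128 and 63.9 CPM (0.60, SE 0.59), highest in 170019, where both cyclins were below their levels in 170025. Ccna2, Aurka, Aurkb and Plk1 ranged from 12.8 CPM (Aurkb in 3802) to 126 CPM (Ccna2 in 3800), with log2 fold changes from -0.91 to 0.26.

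All 5 checkpoint and APC/C genes had a negative fold change, and all 5 were highest in 3800, yet the median of -0.67 rested on that tumor, since 4 of the 5 turned positive without it. Bub1b, a kinase-like protein of the spindle checkpoint, was at 22.0, 29.0 and 55.8 against 119 and 24.0 CPM (-1.01, SE 0.78, edgeR adjusted p = 0.82). Ttk, the checkpoint kinase also called MPS1, was at 7.09, 8.55 and 22.5 against 23.9 and 6.62 CPM (-0.26, SE 0.80). Cdc20, which activates the APC/C at anaphase, was at 66.7, 56.0 and 70.0 against 148 and 58.1 CPM (-0.68, SE 0.59) and was the highest of the group per length (42.8 CPM per kilobase). In each of these 3 genes 3800 was the highest tumor and 3802 lay within or just below the dFLEx range. Bub1 ran from 7.07 to 51.1 CPM.

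Ube2c, the ubiquitin-conjugating enzyme of the APC/C, was the other gene below in every dFLEx tumor, at 91.9, 87.9 and 64.7 against 120 and 93.7 CPM. The gap was narrow, 91.9 in 170019 beside 93.7 in 3802, and the fold change of -0.39 (SE 0.53) was within its error. A troponin gene of muscle, Tnnc2, overlaps 22.8% of the exon model of Ube2c on the opposite strand, and the unstranded counts cannot separate them. Ube2c was the member with the narrowest range over the 5 tumors, 1.86-fold from lowest to highest.

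**Figure D5:**
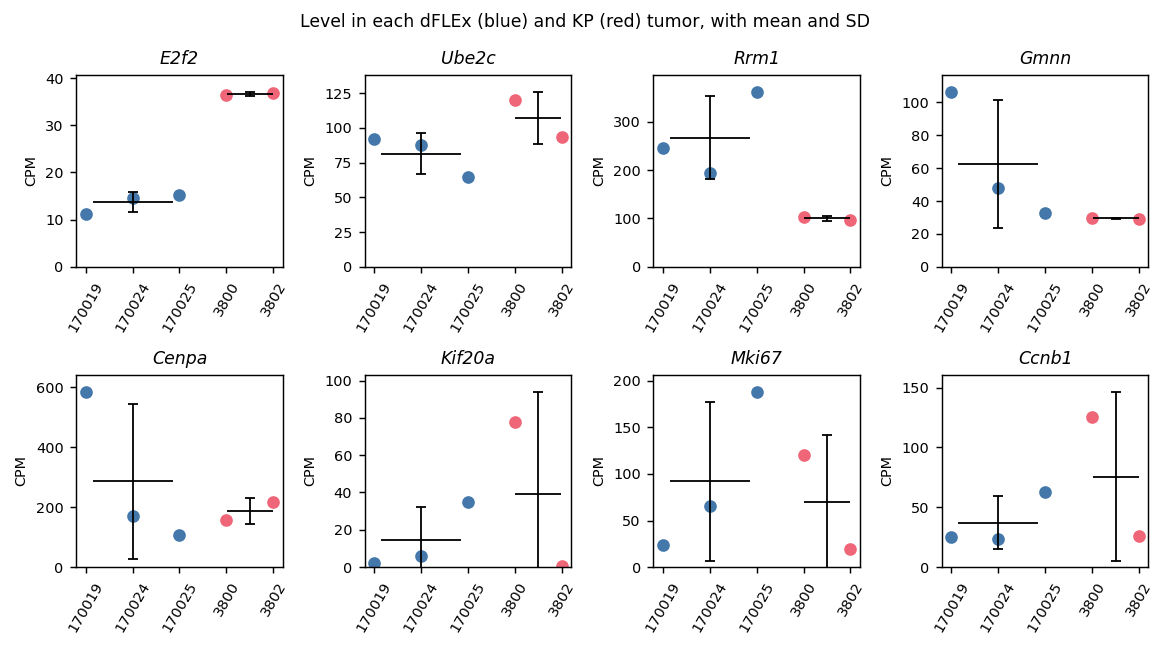
Level in CPM of 8 genes in each dFLEx (blue) and KP (red) tumor, with the group mean (line) and SD (bars, cut at 0). E2f2 and Rrm1 separate the groups with the KP tumors close together, Ube2c and Gmnn do so narrowly, Cenpa is set by 170019, and Kif20a, Mki67 and Ccnb1 vary within both groups.

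The 11 spindle, kinetochore and chromosome genes varied most between tumors, with median coefficients of variation of 65.5% in dFLEx and 86.7% in KP tumors. Kif20a, a kinesin of the midzone and cytokinesis, was at 2.11, 6.00 and 35.2 against 77.7 and 0.772 CPM. It spanned 101-fold between the KP tumors and had the lowest fold change of all members (-1.44, SE 1.57, edgeR adjusted p = 0.888), which was 4.40 without 3800 and -2.41 without 3802. The level in 3802 rested on 19 counts, and 29.3% of the exon model of Kif20a is shared with Cdc23 on the opposite strand. Cenpe, the kinetochore kinesin with the smallest p-value of the group, was at 14.6, 23.4 and 52.3 against 77.1 and 23.7 CPM (-0.75, SE 0.77, edgeR adjusted p = 0.879). Cenpf, Kif11, Kif23, Tpx2, Nusap1, Top2a and Mki67 shared its pattern, with 3800 at 3.53-fold to 7.02-fold the level of 3802 and 170025 at 1.85-fold to 7.89-fold the level of 170019. Mki67, the gene of the Ki-67 antigen by which cycling cells are stained, was at 23.8, 65.4 and 188 against 121 and 19.9 CPM (0.39, SE 1.02). Top2a (topoisomerase II alpha) was at 84.1, 124 and 298 against 321 and 52.6 CPM. For both genes a KP tumor was the lowest of all 5, and a dFLEx tumor held the highest Mki67 level and a KP tumor the highest Top2a level.

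Cenpa and Birc5 ran the other way. Cenpa, the histone variant that marks centromeres, was at 583, 170 and 107 against 157 and 217 CPM. A single dFLEx tumor, 170019, was far above the rest and made the fold change the largest of its group (0.62, SE 0.79), and without it the value was -0.49. Birc5 (survivin), a subunit of the chromosomal passenger complex, was at 150, 88.3 and 57.9 against 63.7 and 122 CPM (0.09, SE 0.64). Its partner in that complex, Aurkb, was at 27.6, 34.3 and 60.1 against 58.5 and 12.8 CPM, the opposite order within both groups. Mki67, Top2a, Birc5 and Aurkb were chosen for their values in each tumor after these had been seen.

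The balance of S-phase to mitosis transcripts was then compared. The 19 S-phase genes summed to 1600, 1315 and 1869 CPM in the dFLEx tumors and 1694 and 845 CPM in 3800 and 3802, and the 25 mitosis genes to 1615, 1219 and 1864 against 2508 and 974 CPM. The ratio of the sums was 0.991, 1.08 and 1.00 in dFLEx tumors and 0.676 and 0.868 in KP tumors, so that the groups did not overlap. With 3 and 2 tumors, an exact permutation test of this value cannot go below 0.1 when one-sided or 0.2 when two-sided. The mean log2 ratio was higher by 0.42 in dFLEx tumors. Cenpa made up 36.1% of the mitosis sum in 170019. Without it the ratios were 1.55, 1.25 and 1.06 against 0.721 and 1.12, so that the difference of the means was 0.51 while 3802 lay above 170025 and the groups overlapped. The total of the 44 genes (3216, 2534 and 3733 against 4203 and 1819 CPM) placed the KP tumors at both ends.

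Wider lists of genes of the same processes were then counted. Of 50 further S-phase genes, 0 passed the test, 27 had a positive and 23 a negative fold change, and the median was 0.07. The largest value was that of Ung, the uracil glycosylase that clears uracil from new DNA, at 67.4, 51.2 and 52.2 against 12.3 and 11.1 CPM (2.28, SE 0.59, edgeR adjusted p = 0.194). Every dFLEx tumor was more than 4-fold above both KP tumors, DESeq2 on tumor sums gave an adjusted p of 0.0181, and the lowest value, -1.18, was that of Pola1, the catalytic subunit of DNA polymerase alpha. Of 75 further mitosis genes, 0 passed, 25 were positive and 50 negative, and the median was -0.33. They ran from -2.20 for Anln (anillin, of the cytokinetic ring), where 3800 was at 208 CPM and the other 4 tumors at 11.4 to 49.1 CPM, to 1.18 for Lmnb1 (lamin B1). KP tumor 3800 was above 3802 for 42 of the 50 and 69 of the 75 genes, against 46.3% of all genes tested. Every dFLEx tumor was above every KP tumor for 9 of the 50 and 9 of the 75, against 13.7% of all genes. Every dFLEx tumor was below for 0 of the 50 and 2 of the 75, against 11.7%.

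Of 18 genes of the E2F, RB, MuvB and NF-Y regulators, 0 passed the test, 7 were positive and 11 negative, and the median was -0.04. E2f5, a repressor E2F of resting cells, had the lowest value, with 4.68, 4.40 and 5.15 against 18.8 and 7.52 CPM (-1.47, SE 0.63, edgeR adjusted p = 0.467). Nfyb, a subunit of the factor that binds the CCAAT box, had the highest, with 27.8, 31.6 and 46.9 against 16.9 and 9.31 CPM (1.43, SE 0.63, edgeR adjusted p = 0.485). In both genes the groups did not overlap. They were the sole such genes of the 18, 1 above and 1 below in every dFLEx tumor, against 13.7% and 11.7% of all genes. Of 18 genes of the APC/C and its regulators, 0 passed, 14 were positive and 4 negative, and the median was 0.29, from -0.20 for Usp37 to 0.80 for Cdc26.

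Members were also set out by promoter motif. The 15 genes with a CHR element had a median fold change of -0.33 on the log2 scale and were higher in 3800 than in 3802 by a median factor of 4.58, against -0.01 and 2.25 for the 29 without. The 12 genes with an E2F element had a median of 0.08 and a factor of 1.98, against -0.24 and 3.57 for the 32 without. Of the 15 genes with a CHR element 13 were mitosis genes, and of the 12 with an E2F element 11 were S-phase genes. The split by motif was therefore largely the split by phase. The medians were -0.35 and a factor of 3.77 for the mitosis genes, and 0.11 and 2.15 for the S-phase genes. Motif and phase were not separated. These are descriptions over genes that share the same 5 tumors. E2f2 and Rrm1, whose promoter sequences are given above, both hold CCAAT boxes, E2f2 also holds an E2F element just after its start, outside the printed window, and neither holds a CHR element.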

How the data were processed

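RNA-seq libraries had been made with rRNA depletion from 3 dFLEx and 2 KP tumors. The authors trimmed reads with Trimmomatic 0.39, aligned them with STAR 2.7.10a to mm39 with the fusion sequence appended, and counted them with featureCounts of Subread 2.0.3 (versions per the submitters' processing notes). The deposited values are raw counts per gene of each library, with the exon length of each gene beside them (a length in bases, which the authors deposited as well). Per the file headers, paired reads were counted without strand and each mate singly, so that counts overstate fragments and 57.5% to 61.2% of nonzero counts were even. Reads shared by overlapping genes and antisense genes cannot be told apart from those of the member.

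Here, counts of duplicate libraries were summed per tumor, genes were kept by edgeR's filterByExpr, scaled by trimmed mean of M values (TMM), and tested with edgeR 4.0.16 (quasi-likelihood, R 4.3.3) over all 24743 genes kept, with dFLEx against KP as the sole term. Adjusted p-values are Benjamini-Hochberg values over all genes, and CPM are on the TMM scale. CPM per kilobase divides by the exon length. The script was tested on simulated data. Alternatives used DESeq2 1.42.0 and limma 3.58.1. Groups came from titles and genotypes, and 1 part of the KP genotype is not reported here. Duplicate numbers mark libraries of 1 tumor and pair no tumors. The labels do not say that tumors came from separate animals, so p-values measure the spread between these tumors. A count of 3 in a tumor corresponded to 0.0378 to 0.122 CPM, counting error only. Named genes were, in each role, the members with the smallest p, the largest and smallest fold change and the highest level per kilobase. In wider lists they were the genes with the largest and smallest fold change whose mean level reached 1 CPM. Outside this rule, values in each tumor were also given for Ube2c, whose groups did not overlap, and for E2f8 and Tyms. Mki67, Top2a, Birc5 and Aurkb were chosen after their values had been seen. The members and lists were chosen with earlier results of these data known. Gene symbols and start sites came from GENCODE M39 on GRCm39 (56017 of 56750 features matched), and promoter motifs were searched by exact match.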

Additional observations from a re-analysis of the deposited data

How the results depend on the processing

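No member was called on tumor sums by edgeR with DESeq2 size factors, library totals, upper quartile scaling, no filter, a 1 CPM filter, robust dispersion, a GC content and length trend removed or any tumor left out, nor by DESeq2 on tumor sums. Treating the 9 libraries as independent, which counts each tumor more than once, edgeR called 1 member higher (Rrm1) and 1 lower (E2f2), and DESeq2 called 1 and 6, where 17.1% and 10.9% of all genes were called (8.24% and 5.43% higher, 8.88% and 5.44% lower). Against the same 17.1% and 10.9%, these settings called 3 and 5 wider S-phase, 7 and 13 wider mitosis and 3 and 4 E2F and MuvB genes, of 50, 75 and 18. Ung alone of the wider S-phase genes was called by DESeq2 on tumor sums (1 gene, 3.15% of all genes) and by limma-voom with a random effect for the tumor, without (1) and with (1) the duplicate number as a replicate block. The duplicate number pairs no tumors. With the block, the member median was -0.06 (-0.09 without), and called genes were 349, 1.79% of those tested (543, 2.78%, without). Correlations of duplicate deviations between tumors were -0.01 to 0.02.

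Leaving out each tumor in turn gave a member median of -0.61 to 1.04, an S-phase minus mitosis median of 0.16 (without 3800) to 0.67 (without 3802), and medians of -0.34 to 1.08 (wider S-phase), -0.81 to 0.99 (wider mitosis), -0.41 to 0.87 (E2F and MuvB) and 0.11 to 0.85 (APC/C), each list's highest median without 3800. Members above in every dFLEx tumor numbered 3 to 31 and below 1 to 27. The highest counts came without 3800 and without 3802, where groups separate more readily because 1 KP tumor is left. The log2 difference of the S-phase to mitosis ratio was 0.24 to 0.60 (0.42 with all tumors) and of the summed level -0.41 to 0.94 (0.17). Without Cenpa, an alternative chosen after seeing the data, they were 0.51 and 0.15. Members fully above were 1 with DESeq2 size factors, 1 with library totals and 1 with first libraries alone, and members fully below were 4 with library totals, 4 with upper quartile scaling, 1 with no filter, 4 with the 1 CPM filter and 5 after removing the trend with GC content and length. The cause of these changes was not tested. Shares of all genes were counted in the main fit with all tumors alone, at 13.7% above and 11.7% below. The counts in the other settings have no such share beside them and are not read as a result about the members.

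Fold changes near 0 turned. E2f7 was -0.036 (DESeq2 size factors), -0.18 (library totals), -0.20 (upper quartile), -0.13 (1 CPM filter), -0.019 (DESeq2), -0.15 and -0.19 (libraries, edgeR and DESeq2), -0.27 and -0.16 (limma-voom without and with block), -0.14 (first libraries) and -0.11 (GC content and length), and E2f1 was, in that order and without the libraries, -0.069, -0.32, -0.23, -0.18, -0.044, then -0.044 and -0.033 (limma-voom), -0.15 and -0.55. With a tumor left out, ranges that crossed 0 were -0.96 to 0.79 for E2f7, -0.33 to 0.54 for E2f1, -0.55 to 0.51 for Cdt1, -0.90 to 1.37 for Rrm2, -1.74 to 0.69 for Ccnb1, -1.11 to 1.77 for Ccnb2, -1.73 to 0.74 for Bub1b, -0.96 to 1.12 for Ttk, -1.19 to 0.31 for Cdc20, -1.41 to 0.52 for Cenpe, -0.49 to 1.00 for Cenpa, -3.26 to 4.40 for Kif20a, -2.30 to 1.14 for Pola1, -3.13 to 0.34 for Anln and -1.06 to 0.76 for Usp37. The median over all genes was -0.18, and -0.34 with upper quartile scaling and -0.47 with library totals, where members stood at -0.17 and -0.38. The number of genes called ranged from 0 without 170019 or 170024 to 4828 with libraries as independent samples in DESeq2.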
